A study of Danio rerio with 24 samples.

Results

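The lactate dehydrogenase (LDH) genes and the MCT1 and MCT4 genes of the monocarboxylate transporter (MCT) family were examined in zebrafish skeletal muscle. Genes were taken by symbol: every entry of the count table whose symbol began with ldha, ldhb, ldhd, slc16a1a, slc16a1b or slc16a3, in upper or lower case. This gave 8 of 31953 gene IDs. They were 4 dehydrogenases (ldha, ldhba, ldhbb and ldhd) and 4 transporters (slc16a1a, slc16a1b, slc16a3 and the entry written SLC16A3 (1 of many)). RefSeq names that last entry slc16a3a, the name used below, and names the table's slc16a3 slc16a3b. All 8 passed the filter on low counts, which left 18947 genes for testing.

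LDH interconverts pyruvate and lactate. In vertebrates the A subunit is the main form in fast glycolytic muscle, where pyruvate is reduced to lactate, and the B subunit is the main form in heart and oxidative muscle, where lactate is oxidised. Subunits join into tetramers, so the proportion of A to B sets which isoenzymes can form. Zebrafish carry duplicate B genes, ldhba and ldhbb, while ldhd encodes a mitochondrial enzyme that oxidises D-lactate. Lactate crosses the plasma membrane through monocarboxylate transporters. MCT1, encoded by slc16a1 genes, is known in mammalian muscle for lactate uptake in oxidative fibres, and MCT4, encoded by slc16a3 genes, for lactate export from glycolytic fibres.

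Muscle of adult Danio rerio, 4 months old, was profiled by RNA-seq of poly(A) RNA. The groups were wild-type fish that were not trained (untrained_WT), wild-type fish trained by chronic exercise (trained_WT) and untrained fish carrying the transgene actc1b:PGC1alpha (untrained_TG). PGC1alpha is a coactivator known for raising mitochondrial gene expression, and actc1b is a muscle actin gene whose name stands first in that of the transgene. Each group had 7 libraries here, of 8 in the labels: untrained_WT replicate 1, trained_WT replicate 7 and untrained_TG replicate 8 were not analysed here. The labels do not say whether a sample was 1 fish or a pool, nor how the fish were trained, so the p-values below speak only of the spread among these libraries. The labels also do not give the species or the part of PGC1alpha in the transgene. The zebrafish gene ppargc1a stood at 28.1 ± 16.3 CPM (counts scaled to a common library size, SD, n = 7) in untrained_WT, 24.4 ± 11.2 in trained_WT and 16.8 ± 8.16 in untrained_TG, with an adjusted p of 0.168 for untrained_TG against untrained_WT (edgeR), so it did not check the transgene.

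Libraries held 42.8 to 79.2 M counts over genes. Mitochondrially encoded genes took 10.5% ± 2.38 of counts in untrained_WT, 11.2% ± 1.45 in trained_WT and 46.8% ± 2.45 in untrained_TG. Muscle fibre markers were high in every library. Of the heart markers listed, only the atrial gene nppa was at 0 in all libraries. The summed heart markers ran from 3.65 CPM in trained_WT replicate 3 to 56.2 CPM in untrained_WT replicate 2. Untrained_WT replicates 3 and 7 stood apart. Their summed germ line markers were 70.8 and 40.2 CPM against 1.06 to 7.82 in the other untrained_WT libraries. Replicate 7 also had the highest summed skin markers of its group (1249 CPM) and the lowest summed fast (89578) and slow (3706) fibre markers. In scaled CPM replicates 3 and 7 also held the lowest ldha, ldhba and ldhd of their group. Their scaling factors were the highest of the group, at 1.35 and 2.008, with 0.906 to 1.208 in the others. As a share of all counts, summed ldha, ldhba and ldhbb was 0.0900% and 0.0989% in them, and lowest in replicate 8 (0.0705%). Results were therefore recomputed without replicates 3 and 7. Levels are CPM on TMM-adjusted library sizes (trimmed mean of M-values), not divided by gene length, so they compare groups for 1 gene and not genes with each other. Tests are the edgeR quasi-likelihood F test over all 21 libraries. Adjusted p-values are Benjamini-Hochberg values over all genes tested, and a gene is called where this value is under 0.05.

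In transgenic muscle the A gene of LDH fell and both B genes rose. Against untrained_WT, ldha was 14.5-fold lower, ldhba 7.02-fold higher and ldhbb 46.0-fold higher, and for these 3 genes no transgenic library overlapped any wild-type library. Of the 8 genes, 4 were called (ldha lower; ldhba, ldhbb and slc16a3a higher), beside 43.4% of all genes tested. Groups did not overlap for 3 of the 8, beside 15.8% of all genes.

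The A gene ldha ranged from 336 CPM through a median of 500 to 978 in untrained_WT. In trained_WT it ranged from 409 through 526 to 658. In untrained_TG it ranged from 19.3 through 40.8 to 58.9. All transgenic libraries lay far below all wild-type libraries, while the trained values fell inside the untrained range. The log2 fold change of untrained_TG was -3.85 ± 0.26 (SE; adjusted p = 1.78e-10, edgeR) against untrained_WT and -3.71 ± 0.26 (adjusted p = 3.18e-10) against trained_WT. Trained_WT differed from untrained_WT by -0.14 ± 0.23, with a 95% interval of -0.63 to 0.35 and an adjusted p of 0.790 (edgeR), and the sign of this small difference turned when untrained_WT replicate 6 was left out.

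The main B gene, ldhba, ranged from 156 CPM through a median of 356 to 434 in untrained_WT. It ranged from 355 through 466 to 546 in trained_WT and from 1299 through 2252 to 3470 in untrained_TG. The lowest transgenic library was above the highest wild-type library, and the trained and untrained ranges overlapped. Its log2 fold change was 2.81 ± 0.23 (SE; adjusted p = 2.50e-09, edgeR) in untrained_TG against untrained_WT and 2.32 ± 0.22 (adjusted p = 3.18e-08) against trained_WT. After training the value was 0.49 ± 0.21, with a 95% interval of 0.05 to 0.94. That interval leaves out 0, but the adjusted p over all genes was 0.199 (edgeR), so no call was made.

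The second B gene, ldhbb, was close to undetected in wild-type muscle, where a library held between 23 and 81 of its reads. Its level was 0.281 to 0.996 CPM in untrained_WT (median 0.452) and 0.353 to 1.2 in trained_WT (median 0.629). In untrained_TG it was 7.44 to 41.6 CPM with a median of 21.7, from 500 to 1959 reads a library. All transgenic libraries exceeded all wild-type ones, and the transgenic libraries themselves spread more widely for ldhbb than for ldhba. The log2 fold change was 5.52 ± 0.41 (SE; adjusted p = 7.51e-10, edgeR) against untrained_WT and 5.19 ± 0.40 (adjusted p = 1.58e-09) against trained_WT. It was 0.33 ± 0.36 after training (adjusted p = 0.657). Reads of ldhba and ldhbb, as close paralogs, are separable only as far as the authors' counting kept them apart.

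The D-lactate enzyme ldhd stayed near 11 CPM in each group: 11.7 ± 4.01 (SD, n = 7) in untrained_WT, 11.3 ± 2.35 in trained_WT and 10.8 ± 2.04 in untrained_TG. None of the 3 comparisons called it, and the 95% interval for untrained_TG against untrained_WT was -0.54 to 0.31 on the log2 scale. Its sign and its call moved with the scaling. With library totals alone it was -0.52 (adjusted p = 0.00622, edgeR), and with totals over genes outside the mitochondrial genome it was 0.23. By RefSeq gene spans ldhd overlaps snrkb, which was not called in any comparison.

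The ratio of B to A reads was then taken within each library, which needs no scaling between libraries. Gene length cancels between groups only for ratios of single genes, or where the mix of the summed genes stays the same. It was log2 of ldhba plus ldhbb reads over ldha reads, with 0.5 added to each count. In untrained_WT it ran from -1.18 through a median of -0.90 to -0.33. In trained_WT it ran from -0.85 through -0.17 to 0.16, and in untrained_TG from 4.75 through 5.89 to 6.87. Every transgenic library thus had far more B than A reads. Untrained_WT libraries all had more A than B, and 2 trained_WT libraries (replicates 6 and 8) had slightly more B than A.

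Transgenic muscle exceeded untrained_WT by 6.65 ± 0.29 log2 units (SE), a 100.6-fold shift in the B to A ratio, with no overlap. The exact two-sided permutation p over all 3432 splits of 7 against 7 libraries was 0.000583, the smallest the design allows, and 0.00140 after adjustment over 12 ratio tests (4 ratios, 3 comparisons). Against trained_WT the shift was 6.05 ± 0.28 (adjusted exact p = 0.00140). Trained muscle exceeded untrained_WT by 0.60 ± 0.18 log2 units, a 1.51-fold shift with overlapping groups (exact p = 0.0105, adjusted 0.0180). Neither ldha nor ldhba was called on its own in that comparison. Over leave-outs of single libraries, and of untrained_WT replicates 3 and 7 together, the training shift stayed between 0.54 and 0.70 with adjusted exact p from 0.00400 to 0.0390.

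As shares of the 3 L-lactate dehydrogenase genes' reads, ldha took 63.7% ± 5.62 (SD, n = 7) in untrained_WT, 53.8% ± 5.67 in trained_WT and 1.89% ± 0.892 in untrained_TG. The share of ldhba was 36.2% ± 5.63, 46.1% ± 5.67 and 97.1% ± 1.29 in the same order. The share of ldhbb was 0.0599% ± 0.0324, 0.0644% ± 0.0259 and 1.02% ± 0.549. These are shares of reads, not of transcripts or enzyme subunits. The summed level of the 3 genes was 920 ± 311 CPM in untrained_WT, 998 ± 131 in trained_WT and 2363 ± 718 in untrained_TG. As a share of all counts the sum was 0.105% ± 0.0244, 0.0984% ± 0.0116 and 0.19986% ± 0.0453, and outside mitochondrially encoded genes it was 0.118%, 0.111% and 0.378%.

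The B genes did not rise in step. The log2 ratio of ldhbb to ldhba reads was -9.39 ± 0.84 (SD, n = 7) in untrained_WT, -9.57 ± 0.64 in trained_WT and -6.77 ± 0.89 in untrained_TG. Transgenic muscle was higher by 2.62 ± 0.46 (SE) than untrained_WT, with overlapping groups (exact p = 0.00117, adjusted 0.00233). It was higher by 2.79 ± 0.41 than trained_WT, without overlap (adjusted exact p = 0.00140). Training differed by -0.18 ± 0.40 (adjusted exact p = 0.663), and this sign turned without untrained_WT replicate 7. Within the transgenic group the ratio ran from -8.24 in replicate 4, which also had the lowest ldhbb and the lowest ldha, to -5.72 in replicate 7, the library with the fewest counts.

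**Figure D1:**
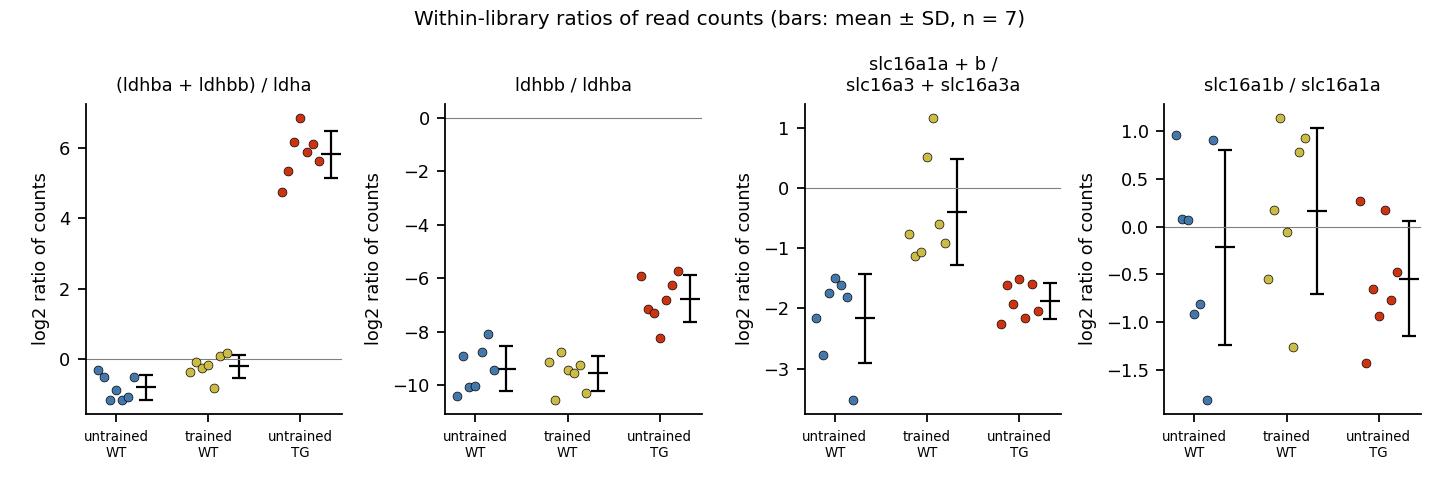
Within-library log2 ratios of read counts, by group: B over A, ldhbb over ldhba, slc16a1 over slc16a3 and slc16a1b over slc16a1a. Points are libraries and bars are group means. The B over A ratio separates the transgenic libraries (4.75 to 6.87) from all wild-type ones (-1.18 to 0.16), and the slc16a1 over slc16a3 ratio separates trained_WT (-1.13 to 1.16) from both untrained groups (-3.52 to -1.49).

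Among the transporters, the MCT4 gene slc16a3 was lower in trained muscle than in both untrained groups. Its level ranged from 108 CPM through a median of 166 to 376 in untrained_WT. In trained_WT it ranged from 38.6 through 95.6 to 121, and in untrained_TG from 143 through 203 to 248. All trained libraries lay below all transgenic ones. All trained libraries but replicate 8 also lay below all untrained_WT ones, and untrained_WT replicate 8 stood high at 376 CPM with the next library at 197.

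After training slc16a3 was 2.19-fold lower, a log2 fold change of -1.13 ± 0.27 (SE; adjusted p = 0.0210, edgeR). It was the only member called in that comparison, 1 of 8 beside 2.95% of all genes, and 3 of 8 had an unadjusted p under 0.05. The groups were free of overlap for 0 of the 8, beside 1.34% of all genes. Without untrained_WT replicate 8 the change was -0.87 (adjusted p = 0.0454, edgeR), and with only the 2 groups in the fit it was -1.15 with an adjusted p of 0.0584, so the call was lost. The authors' deposited table gives it an adjusted p of 0.00173. Transgenic muscle was 2.32-fold above trained_WT, at 1.21 ± 0.27 (adjusted p = 0.000815, edgeR), and its difference from untrained_WT was 0.08 ± 0.26 (95% interval -0.47 to 0.63, adjusted p = 0.832), a value whose sign turned under library totals. In that comparison with trained_WT 4 of 8 members were called (ldha lower; ldhba, ldhbb and slc16a3 higher), beside 41.6% of all genes, and for the same 4 the groups did not overlap, beside 19.7% of all genes. Other settings called up to 6 members there: slc16a3a was added with DESeq2 (adjusted p = 0.0383) and with only the 2 groups in the fit (0.0446, edgeR), among others.

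By RefSeq gene spans slc16a3 overlaps ccdc57, and the strand setting of the counting is not given in the sources used here. The level of ccdc57 was 3.26 ± 0.970 CPM (SD, n = 7) in untrained_WT, 1.86 ± 0.178 in trained_WT and 4.82 ± 1.77 in untrained_TG. Its log2 change after training, -0.81 ± 0.22 (SE; adjusted p = 0.05004, edgeR), was below 0 but not called. It was called higher in untrained_TG, by 0.56 ± 0.22 against untrained_WT (adjusted p = 0.0431, edgeR) and by 1.37 ± 0.23 against trained_WT (adjusted p = 3.67e-05), where slc16a3 was also higher. Its part in the reads of slc16a3 was not tested.

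The paralog slc16a3a was scarce, with 7 to 53 reads in a library. Its level was 0.256 ± 0.14 CPM (SD, n = 7) in untrained_WT, 0.292 ± 0.0941 in trained_WT and 0.570 ± 0.281 in untrained_TG, with overlapping groups. It was higher in untrained_TG than in untrained_WT by 1.15 ± 0.41 log2 units (SE; adjusted p = 0.0272, edgeR). The call was lost in 6 of 22 leave-outs, where adjusted p reached 0.0627, and with library totals alone, where it was 0.273.

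The MCT1 genes were not called in any comparison in the fit over all libraries. The level of slc16a1a was 10.7 to 46.1 CPM (median 22.6) in untrained_WT, 14.6 to 61.3 (median 25.4) in trained_WT and 22.2 to 40.0 (median 33.0) in untrained_TG. The level of slc16a1b was 6.94 to 29.3 CPM (median 21.4) in untrained_WT, 20.2 to 43.8 (median 32.2) in trained_WT and 12.9 to 27.8 (median 22.8) in untrained_TG. The 3 ranges overlapped for each gene, and different libraries headed them: trained_WT replicate 5 had the highest slc16a1a of all libraries and trained_WT replicate 6 the highest slc16a1b.

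Against untrained_WT, slc16a1a differed in untrained_TG by 0.51 ± 0.31 (SE; 95% interval -0.14 to 1.17, adjusted p = 0.188, edgeR). Without untrained_WT replicate 5, the library with 46.1 CPM, this became 0.77 with an adjusted p of 0.0342. It differed after training by 0.46 ± 0.31 (adjusted p = 0.431). For slc16a1b the training difference was 0.77 ± 0.27 (95% interval 0.21 to 1.34, adjusted p = 0.116, edgeR), and the transgenic difference was 0.21 ± 0.27 (adjusted p = 0.560), whose sign turned under library totals and without untrained_WT replicates 3 and 7. Between untrained_TG and trained_WT slc16a1b differed by -0.57 ± 0.27 (95% interval -1.13 to -0.01, adjusted p = 0.0944, edgeR). It was called lower there with library totals (adjusted p = 0.00791, edgeR), with only the 2 groups in the fit (0.0305), without untrained_WT replicate 7 (0.0465) and without untrained_WT replicates 3 and 7 (0.0400). The ratio of slc16a1b to slc16a1a did not pass the exact permutation test in any comparison (adjusted exact p = 0.505, 0.505 and 0.151).

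Taken within libraries, the balance of MCT1 to MCT4 transcripts rose after training, and no change was called in transgenic muscle. The log2 ratio of summed slc16a1a and slc16a1b reads to summed slc16a3 and slc16a3a reads ran from -3.52 through a median of -1.82 to -1.49 in untrained_WT. It ran from -1.13 through -0.76 to 1.16 in trained_WT and from -2.27 through -1.92 to -1.51 in untrained_TG. Every trained library was above every untrained library of either genotype. In trained_WT replicates 4 and 5 MCT1 reads outnumbered MCT4 reads, and in all other libraries MCT4 reads were the more numerous.

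Training raised the ratio by 1.76 ± 0.44 log2 units (SE), or 3.39-fold (exact p = 0.000583, adjusted 0.00140, no overlap), and the difference of group medians was smaller, at 1.06. Transgenic muscle was below trained_WT by -1.47 ± 0.35 (adjusted exact p = 0.00140, no overlap). Against untrained_WT it differed by 0.29 ± 0.30 (exact p = 0.401, adjusted 0.505), and by -0.10 when group medians were compared. After training both the B to A and the MCT1 to MCT4 ratio were thus called higher, whereas in untrained_TG the B to A ratio was called and the MCT1 to MCT4 ratio was not. The comparisons of trained_WT and untrained_TG with untrained_WT share their control libraries.

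Fibre type markers also differed between untrained_TG and untrained_WT. Of 27 fast fibre markers, 22 were called lower and 1 higher in untrained_TG against untrained_WT, beside 43.4% of all genes called. Of 18 genes listed as slow fibre markers, the slow-fibre repressor sox6 among them, 15 were higher and 1 lower. The summed fast markers ran from 89578 to 345907 CPM in untrained_WT, 178081 to 319319 in trained_WT and 29827 to 40691 in untrained_TG. The summed slow markers ran from 3706 to 8665 CPM, 5960 to 11353 and 28137 to 49035. In bulk muscle, fewer fibres of a type and less RNA in each fibre cannot be told apart. After training no fast marker was called, and 1 slow marker was higher and 1 lower.

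Set against these sums, ldha reads per 1000 fast-marker reads were 2.79 ± 0.967 (SD, n = 7) in untrained_WT, 2.11 ± 0.517 in trained_WT and 1.16 ± 0.332 in untrained_TG. The ldhba reads per 1000 slow-marker reads were 52.5 ± 9.11, 56.6 ± 9.62 and 62.7 ± 21.0, with overlapping ranges. For ldha set against fast markers, the untrained_TG range (0.615 to 1.65) overlapped those of untrained_WT (1.33 to 3.75) and trained_WT (1.57 to 2.96) only at their edges. Only untrained_WT replicate 8 (1.33) and trained_WT replicate 6 (1.57) lay below the highest untrained_TG value. The transgenic and wild-type ranges also overlapped for ldhba set against slow markers. They did not for ldhbb, which was at 0.0896 ± 0.0525, 0.0795 ± 0.0383 and 0.650 ± 0.422 reads per 1000.

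The MCT4 gene slc16a3 did not follow the fast markers. It stood at 0.863 ± 0.294 reads per 1000 fast-marker reads (SD, n = 7) in untrained_WT, 0.323 ± 0.0870 in trained_WT and 5.63 ± 1.3 in untrained_TG, and the transgenic libraries did not overlap the wild-type ones. These ratios are descriptions without a test. The part of fibre type in the changes of single genes was not tested.

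Other cell types the samples could hold were checked against untrained_WT in the same fit. Over all genes tested, 43.4% were called in untrained_TG and 2.95% in trained_WT. In untrained_TG, 0 of 8 red blood cell markers and 0 of 9 liver markers were called, 3 of 8 white blood cell markers were higher and 2 lower, 2 of 9 nerve and glia markers were higher and 2 of 7 skin markers lower. All 6 germ line markers tested were lower, where untrained_WT replicates 3 and 7 are the high libraries. Untrained_WT replicate 7 also had the highest summed skin markers of its group, 1249 CPM. Of 11 heart markers 4 passed the filter and 1 was higher, and their summed level was 11 to 56.2 CPM in untrained_WT and 4.47 to 28.2 in untrained_TG. In trained_WT none of these 7 lists held a called marker. Red blood cell markers summed to 288 to 2106 CPM in untrained_WT, with the highest value in replicate 5, which also had the highest slc16a1a of its group. Their part in the results was not tested.

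Around the dehydrogenases, the genes that carry pyruvate into mitochondria and oxidise it were mostly higher in untrained_TG. For the pathway lists here and below, the share called over all genes was 43.4% in untrained_TG against untrained_WT. After training it was 2.95%. All 5 tested genes of the pyruvate dehydrogenase complex were called higher against untrained_WT, with a median log2 fold change of 1.32 beside -0.13 over all genes. The E1 alpha gene pdha1a rose from 498 ± 123 to 1632 ± 239 CPM (SD, n = 7; log2 fold change 1.71 ± 0.15, SE), the E1 beta gene pdhb by 1.45 ± 0.16 and the E3 gene dldh by 1.07 ± 0.17. Of the 3 entries for the mitochondrial pyruvate carrier, mpc1 (1.45 ± 0.18) and mpc2 (1.65 ± 0.19) rose and MPC2 (1 of many) fell (-0.88 ± 0.22), a call lost with library totals outside the mitochondrial genome (-0.54, adjusted p = 0.0820, edgeR). None of these genes was called after training (edgeR; mpc1 adjusted p = 0.0919, pdha1a 0.0758), although pdha1a passed with DESeq2 and limma-voom, at 0.0318 and 0.0491, and mpc1 with DESeq2, at 0.0457.

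Genes of kinases that switch the pyruvate dehydrogenase complex off, of phosphatases that switch it on and of a phosphatase regulator were mostly lower in untrained_TG. Of these 9 genes 6 were lower and 1 higher against untrained_WT (median -1.44). The kinase genes pdk3b (-5.10 ± 0.26, SE), pdk1 (-2.81 ± 0.34), pdk2b (-1.66 ± 0.35) and pdk3a (-1.53 ± 0.29) fell, while pdk2a (-0.54, adjusted p = 0.216, edgeR) and pdk4 (0.12, adjusted p = 0.745) were not called. The other lower genes were the phosphatase genes pdp1 (-1.44) and pdp2 (-0.86), and the higher one was PDPR (1.02). These 5 genes lie outside the rule for named genes and were picked after their values were seen. After training pdk2b rose, from 367 ± 214 to 1903 ± 357 CPM (SD, n = 7), by 2.37 ± 0.36 log2 units (SE; adjusted p = 0.000463, edgeR). The phosphatase gene pdp1 was the only other one of the 9 called after training, with a log2 fold change of -1.06 (adjusted p = 0.04815, edgeR).

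Pyruvate kinase, which supplies the pyruvate, split between its genes in untrained_TG: pkmb fell from 2064 ± 1081 to 307 ± 72.7 CPM (SD, n = 7; log2 fold change -2.75 ± 0.30, SE), pkma rose by 1.08 ± 0.17 and pklr was not called at 1.18 to 1.83 CPM on average. The 21 other glycolytic genes listed had 7 higher and 11 lower, with a median of -0.72. The isomerase and mutase genes gpia (1.68 ± 0.18), tpi1a (3.55 ± 0.41) and pgam1b (2.53 ± 0.22) rose, and the aldolase gene aldoab fell (-1.02 ± 0.22). None of the 24 genes of these 2 lists was called after training, when their medians were 0.28 and 0.37 beside -0.07 over all genes.

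The shuttles that regenerate cytosolic NAD+ in place of LDH differed from each other in untrained_TG. Of 9 malate-aspartate shuttle genes 5 were higher and 0 lower (median 0.68). Among them were the cytosolic malate dehydrogenase gene mdh1aa, which rose from 258 ± 83.5 to 2294 ± 345 CPM (SD, n = 7; 3.15 ± 0.21, SE), the mitochondrial mdh2 (1.22 ± 0.15) and the carrier slc25a11 (0.68 ± 0.15), whose call was lost with library totals (0.24, adjusted p = 0.0995, edgeR). Of 4 glycerol phosphate shuttle genes 1 was higher and 1 lower: gpd1a rose by 0.92 ± 0.15, gpd1b fell from 323 ± 103 to 32.6 ± 8.76 CPM (-3.31 ± 0.21), and gpd2 was not called. The alanine aminotransferase genes, which turn pyruvate into alanine, had 2 of 3 lower, GPT (1 of many) at -1.67 ± 0.25 and gpt2 at -2.06 ± 0.25, while gpt2l was not called (-1.16 ± 0.54). None of these 16 genes was called after training.

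Other monocarboxylate transporters and their chaperones were lower in 9 and higher in 3 of 16 tested genes in untrained_TG (median -1.55). SLC16A7, the MCT2 gene, rose from 1.68 ± 1.27 to 23.9 ± 5.60 CPM (SD, n = 7; 3.82 ± 0.40, SE). By contrast slc16a5a (-1.83 ± 0.27) and slc16a9a (-2.67 ± 0.27) fell. The chaperone basigin, bsg, which brings MCT1 and MCT4 to the membrane in mammals, is reported beside them for that role and not by the rule for named genes. It rose from 233 ± 25.9 to 398 ± 94.1 CPM (0.77 ± 0.14; adjusted p = 8.55e-05, edgeR) and was at 237 ± 23.8 after training (0.03 ± 0.14; adjusted p = 0.943). After training slc16a9a was the only one of the 16 called: it rose from 49.0 ± 13.0 to 144 ± 31.9 CPM (1.56 ± 0.26; adjusted p = 0.00125, edgeR).

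Of 12 other enzymes of lactate, pyruvate and methylglyoxal handling 7 were lower and 0 higher in untrained_TG (median -1.09), and 0 were called after training. The named ones were the glyoxalase gene glo1 (-1.12 ± 0.16, SE), the malic enzyme genes me1 (-1.07 ± 0.30) and me2 (-1.19 ± 0.17), and the pyruvate carboxylase gene pcxa (-0.51 ± 0.15). With totals outside the mitochondrial genome the calls of me1 (-0.71, adjusted p = 0.0679, edgeR) and pcxa (-0.26, adjusted p = 0.364) were lost. Of 17 transcription factor and coactivator genes listed for their known ties to LDH or to PGC1alpha, 3 were higher and 3 lower in untrained_TG (median 0.05). The share called over all genes was 43.4%. The hypoxia-inducible factor gene epas1b rose by 1.55 ± 0.22, hif1al2 by 1.04 ± 0.23, and the partner gene arnt2 fell (-1.99 ± 0.35). The hif1al2 call was lost with library totals (0.52, adjusted p = 0.150, edgeR). After training 2 of the 17 were higher: esrra, the oestrogen-related receptor alpha gene, went from 10.5 ± 4.98 to 46.4 ± 18.5 CPM (SD, n = 7; 2.14 ± 0.42, adjusted p = 0.00568, edgeR) and hif1al2 rose by 0.90 ± 0.23 (adjusted p = 0.0340), a call lost with library totals with or without mitochondrially encoded genes (adjusted p = 0.174 in each), without untrained_WT replicates 3 and 7 (0.0880) and with only the 2 groups in the fit (0.0631). In untrained_TG esrra differed from untrained_WT by 0.86 ± 0.41 (adjusted p = 0.0932, edgeR), and it was called without untrained_TG replicate 2 (1.05, adjusted p = 0.0382) and with totals outside the mitochondrial genome (1.22, adjusted p = 0.0137).

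For ldha, ldhba, ldhbb and the 4 transporters, the members for which this search was planned, the genes of closest pattern over the 21 libraries were sought among 12088 named genes averaging 50 counts or more, by the root mean square difference of centred log2 CPM. For ldha they were faah (0.44 log2 units), ryr1b (0.44) and entpd5b (0.45), of which ryr1b, the calcium release channel of fast fibres, is in the fast marker list. For ldhba they were the ATP synthase subunit gene atp5g1 (0.26), the mitochondrial cristae gene chchd6b (0.28) and the branched-chain aminotransferase gene bcat2 (0.29). For ldhbb the nearest were farther off: tmem82 (0.65), zp3d.1 (0.73) and EML5 (0.77). By this distance, of the 3 dehydrogenases searched, ldhba had the closest genes and ldhbb the farthest. The distance is not scaled to a gene's own spread, and ldhbb held only 23 to 81 reads in a wild-type library. Whether noise set this order was not tested.

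For slc16a3 the nearest were tfeb (0.43), tia1 (0.45) and ptenb (0.47). Of these tia1 (-0.74 ± 0.13, SE; adjusted p = 0.00194, edgeR) and ptenb (-0.61 ± 0.16; adjusted p = 0.0432) were also lower after training. For slc16a1a they were ehd2b (0.35), tln1 (0.35) and rhag (0.36), and for slc16a1b the fatty acid receptor gene pparaa (0.36), coq10b (0.41) and wnk4b (0.41). Of these pparaa was higher after training (1.08 ± 0.25; adjusted p = 0.0219, edgeR). For slc16a3a they were tmc8 (0.51), ppp1r12b (0.52) and usp18 (0.53). All 21 libraries enter both the choice and the values, so these are descriptions.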

How the data were processed

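The members and all gene lists were chosen with earlier results of these data known. The authors deposited raw read counts per gene; per the submitters' processing notes, STAR 2.4.0i, HTSeq 0.9.1, DESeq2 and the build GRCz10 were used. Library kits were stranded, per the labels' protocols; neither the strand setting of the counting nor the annotation release is given in the sources used here. Per the file headers, the authors' 2 tables of their own comparisons (untrained_TG and trained_WT, each against untrained_WT) hold log2 fold changes and p-values from DESeq2, used for symbols and 1 quoted adjusted p. Their mean signal per gene and test score, deposited by the authors in the same tables, and their normalised values were not used. RefSeq (assembly GRCz12tu) served for names and overlaps only, and all 8 members matched. No sequence table was at hand, so no sequence or coordinate is printed.

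Counts were computed on with edgeR 4.0.16 in R 4.3.3: filterByExpr by group, TMM, quasi-likelihood F test, group as the only term, 21 libraries, Benjamini-Hochberg within each comparison. An SE is the size of the log2 fold change over the square root of F, and 95% intervals use 18 residual degrees of freedom. The script was tested on simulated counts. Rows that name no gene stayed out of library sizes: reads with no feature were 6.19% ± 1.01 (SD, n = 7) of all reads in untrained_WT, 5.79% ± 0.258 in trained_WT and 9.18% ± 0.578 in untrained_TG. Ratios were compared by exact two-sided permutation tests (scipy 1.17.1).

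The named genes were all members, per pathway list the 3 genes with the smallest p in untrained_TG and the 1 with the smallest p in trained_WT against untrained_WT (all genes of shorter lists), and the 3 genes most like each member. The tests were planned for 8 libraries a group and run on 7. No 2 libraries of a group agreed within sampling noise (lowest chi-square per gene 75.66). Alternatives were DESeq2 1.42.0, limma-voom (limma 3.58.1), other scalings, no filter, only the compared groups, a replicate block and leave-outs. Those added outside the plan, after seeing the data, were scaling without mitochondrially encoded genes and most single leave-outs. The leave-out of untrained_WT replicates 3 and 7 was in the plan, but these libraries were picked by their values in these data.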

Additional observations from a re-analysis of the deposited data

Results flagged for a closer look

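Of 36 groups of 7 values (members and ratios in the 3 groups), 4 held a library whose gap to its nearest neighbour was too large a part of the range of the group by Dixon's 95% critical value; chance alone flags about 1 group in 20. The MCT4 gene slc16a3 stood at 376 CPM in untrained_WT replicate 8, with the next library at 197. The MCT1 gene slc16a1a stood at 46.1 CPM in untrained_WT replicate 5, with the next at 24.5, and that library also had the highest red blood cell marker sum of its group, 2106 CPM. The scarce B gene ldhbb stood at 0.996 CPM in untrained_WT replicate 6, with the next at 0.569, and at 1.2 CPM in trained_WT replicate 3, with the next at 0.704. The report gives slc16a3 and slc16a1a without their library. Without untrained_WT replicate 6 or trained_WT replicate 3, ldhbb kept its calls in both comparisons with untrained_TG. The cause of these values was not tested.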

How the results depend on the processing

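The calls of ldha, ldhba and ldhbb in untrained_TG against either wild-type group held under every alternative run, as did slc16a3 between untrained_TG and trained_WT. With only the 2 groups compared in the fit, 0 members were called after training by edgeR (3 at an unadjusted p under 0.05). With all 3 groups in the fit edgeR, DESeq2 and limma-voom each called 1. The labels do not say that replicate numbers pair the samples. Correlations of same-numbered libraries ran from -0.36 to 0.40. Above 0.1 were 0 of 6 pairs for untrained_TG against untrained_WT and 2 of 6 in each comparison that held trained_WT. A shared tank, day or batch was not tested. With the replicate number as a block, no ratio over 6 pairs reached an adjusted exact p under 0.0536. So few pairs limit how small an exact p can be. The difference in B over A was 6.88, 0.58 and 6.15 (untrained_TG against untrained_WT, trained_WT against untrained_WT, untrained_TG against trained_WT). It was 2.47 and 2.499 for ldhbb over ldhba in the comparisons with untrained_TG. For MCT1 over MCT4 it was 1.88 after training and -1.53 for untrained_TG against trained_WT. The block moved the count of all genes called after training from 559 to 369 and the call of slc16a3a was lost (adjusted p = 0.114, edgeR).

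Scaling by library totals moved the all-gene median of untrained_TG against untrained_WT from -0.13 to -0.64 and the calls from 3468 higher and 4764 lower to 1538 and 8139; totals without mitochondrially encoded genes gave 4114 and 2960, and called members became 2 higher and 2 lower with totals. After training the calls were 426 higher and 133 lower, 201 and 927 with totals, 186 and 720 with totals without mitochondrially encoded genes. All genes called after training were 559, with DESeq2 1267, with totals 1128 and 906, without untrained_WT replicates 3 and 7 262, without untrained_WT replicate 3 335 and without trained_WT replicate 5 287.

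Values that turned sign were uncalled in the reported fit. For untrained_TG against untrained_WT, totals gave slc16a1a -0.013, slc16a1b -0.19, slc16a3 -0.33 and gpd2 -0.38, totals without mitochondrially encoded genes gave ldhd 0.23, and the block gave ldhd 0.0022. Without untrained_WT replicates 3 and 7, slc16a1b was -0.044 and slc16a3 -0.066, and group medians gave MCT1 over MCT4 -0.10. For trained_WT against untrained_WT, totals gave slc16a3a -0.12, arnt2 -0.13, epas1b -0.12 and slc16a5a -0.075, and totals without mitochondrially encoded genes -0.13, -0.11, -0.12 and -0.073. There limma-voom gave ldhd 0.012, the block gpd2 0.030 and pklr 0.20, and leaving out untrained_WT replicates 3 and 7 pklr 0.21, tpi1a 0.043 and ldhbb over ldhba 0.18. For untrained_TG against trained_WT, totals gave slc16a1a -0.18, gpd2 -0.021 and hif1al2 -0.095, no filter slc16a1a -0.013, the block ldhd 0.043, totals without mitochondrially encoded genes ldhd 0.47 (adjusted p = 0.0132, all-gene median 0.48) and pklr 0.13, and TMM without them ldhd 0.025. The cause was not tested.

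Over leave-outs of 1 library, slc16a3 and gpd2 in untrained_TG against untrained_WT ran from -0.049 to 0.34 and from -0.044 to 0.11. After training ldha ran from -0.22 to 0.030, ldhd from -0.15 to 0.063, pklr from -0.18 to 0.046 and ldhbb over ldhba from -0.35 to 0.041. For untrained_TG against trained_WT ldhd ran from -0.14 to 0.020, slc16a1a from -0.072 to 0.32 and slc16a1b over slc16a1a from -0.95 to -0.55, called without trained_WT replicate 5 (adjusted exact p = 0.0420). Reads were few for ldhbb in wild-type muscle and for slc16a3a everywhere, with 7 to 81 a library.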
